A study of Rattus norvegicus with 25 samples.

Results

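Probe set b6998 is 1 of the 66 probe sets of the HuGChip, a DNA microarray made to profile the bacteria of the human gut through their 16S rRNA genes. All probes whose name begins with b6998 were taken, which gave 95 of the 4441 probes, each 25 bases long and printed as 3 spots per array. The number after the prefix divides them into 5 groups of 31, 20, 19, 20 and 5 variants, called group 1 to group 5 here, and the last number counts the variants. No source used here pairs the set with a taxon, so none is named.

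The arrays were hybridised with 16S rRNA gene amplicons from faeces of Wistar rats that had been fed 1 of 4 diets for 12 weeks. The diets held an iso-energetic control oil (PO, 6 samples), the control oil with aleurone (A+PO, 6 samples), linseed oil (LO, 6 samples) or linseed oil with aleurone (A+LO, 7 samples). Each of 12 arrays carried a sample without aleurone in the dye Cy3 and a sample with aleurone in Cy5, and sample A+LO 11 was used alone on its array. Aleurone and dye therefore cannot be told apart, and neither can oil and slide, since the arrays of the control-oil diets lie on one slide and those of the linseed diets on another. The labels and the files disagree on the number of 4 A+LO samples, and they are called the A+LO partners of LO 4, LO 6, LO 8 and LO 9, whose arrays they share. Nothing in the labels ties the samples of a diet to cages or litters, so p-values measure the spread between these samples.

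The 16S rRNA gene is carried by all bacteria and mixes stretches that hardly change with stretches that vary between lineages. A probe complementary to a variable stretch gives signal when amplicons with that stretch, or one close to it, are in the sample. The brightness of a spot also depends on the base composition of the probe and on mismatches, so brightness does not rank probes by the abundance of their targets. Aleurone is the bran layer that surrounds the starchy part of a cereal grain and is rich in fibre, and linseed oil supplies alpha-linolenic acid, an omega-3 fatty acid of plants.

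A probe was called detected in a sample when over 0.5 of its spots, after those marked as outliers by the scanner software were left out, stood well above background in the software's own test. Samples had 556 to 1476 of the 4346 probes of the other sets detected. The scanner software marked 20.7% to 51.6% of the b6998 spots as outliers, depending on the sample, against 13.1% to 48.1% of the spots of the other sets. Between 7 and 27 of the 95 b6998 probes per sample had spots on both sides of the background limit. No b6998 spot was saturated. The array of PO 1 and A+PO 1 had the most detected probes in b6998 and in the other sets, and the array of LO 4 had the fewest in both. The mean of the negative control spots was 801 in PO 1 and 797 in LO 11, and no other sample exceeded 333.

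The 5 groups of b6998 fell into a frequently detected and a rarely detected part. Groups 3, 4 and 5 were detected in 86.7%, 66.6% and 78.4% of the combinations of probe and sample, and every one of their variants was detected in at least 1 sample. Groups 1 and 2 were detected in 6.71% and 5.80% of the combinations, and 16 of the 31 variants of group 1 and 13 of the 20 of group 2 were detected in no sample. These low shares rest on the detection rule: with a probe called at 3 SD of the local background, groups 1 and 2 were detected in 32.4% and 30.4% of the combinations and all of their 31 and 20 variants in at least 1 sample, beside 44.9% of the combinations in the other sets, where the main rule gave 22.0%. In all, 66 of the 95 probes were detected in at least 1 sample (69.5%) and 18 in all 25 (18.9%). Of the probes of the other sets, 47.8% were detected in at least 1 sample and 8.90% in all 25.

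The variants of a group shared bases to different degrees, and base composition differed between the groups. The variants of group 3 shared the same base at 12 of their 25 positions, those of group 4 at 10, group 5 at 8, group 1 at 6 and group 2 at 5. The median probe held 9 G or C bases in groups 1 and 2, 11 in group 3 and 14 in groups 4 and 5. Among probes with 6 to 10 G or C bases, 13 of 38 of groups 1 and 2 were detected in some sample, and so were 5 of 5 of group 3 and 32.7% of the probes of the other sets. Among probes with 11 to 13, the counts were 8 of 12 in groups 1 and 2 and 23 of 23 in groups 3, 4 and 5, against 45.8% in the other sets. By the main rule, groups 1 and 2 thus stayed behind the other groups of the set within each of these classes.

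The sequences nearest to the groups in other sets were also detected at unequal rates. All 19 variants of group 3 had their nearest probe of another set in group 3 of set b6959, at 4 to 7 mismatches, and the 152 probes of that group were detected in 84.1% of the combinations of probe and sample. For 19 of the 20 variants of group 4 the nearest probe was in group 5 of set b6940, at 6 to 9 mismatches over the whole group, and those 7 probes were detected in 78.9%. For 28 of the 31 variants of group 1 the nearest probe was in group 2 of set b6992, whose 4 probes were detected in 24.0%. For 10 of the 20 variants of group 2 it was in group 1 of set b6958, whose 8 probes were detected in 0.50%. These neighbours are more distant, at 3 to 10 mismatches over group 1 (median 8) and 8 to 12 over group 2 (median 10). Group 5 was 10 to 11 mismatches from its nearest probes. For 2 of its 5 variants they were in group 2 of set b6949, whose 2 probes were detected in 10.0%. No b6998 probe had the sequence of a probe of another set. Whether amplicons seen by these neighbours gave signal on b6998 probes was not tested.

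The 18 probes detected in all 25 samples were variants 1, 3, 4, 6, 7, 9, 12, 15 and 19 of group 3, variants 5, 7, 8, 9, 11, 15 and 19 of group 4, and variants 1 and 3 of group 5. Their mean spot intensity, before any scaling, had a median over the samples between 7962 (b6998_3_9) and 368938 (b6998_4_8). A single probe still varied widely between samples. The intensity of b6998_3_9, for example, ran from 70.8 in the A+LO partner of LO 4 to 455095 in A+PO 1, and that of b6998_4_7 from 16940.5 to 493046. The 29 probes detected in no sample had medians between 74.2 and 92.3. Detection in all 25 samples also rests on the rule. At 3 SD of the local background it held for 4 probes of group 3, 3 of group 4 and 1 of group 5. With outlier spots kept it held for 11, 9 and 3.

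Group 3 was the most uniformly detected. Besides the 9 variants found in all samples, 9 were found in 10 to 24 samples (b6998_3_2 in 10, b6998_3_10 in 18, b6998_3_17 in 19, and the others in 21 to 24). Variant b6998_3_8 was found in 5 samples. It reached an intensity of 10740.4 in PO 1, 6531 in A+PO 1, 1570 in PO 2, 673 in A+PO 2 and 160 in LO 9, and no undetected sample exceeded 204. The 4 brightest of these samples lie on 2 arrays.

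Group 4 held both common and rare variants. Besides the 7 found in all samples, 8 were found in 9 to 24 samples, and 5 were found in 1 to 4. Some rare variants were bright where they were found. Variant b6998_4_16 gave 226459 in PO 1, 255516 in PO 2, 211229 in A+PO 1 and 149898 in A+PO 2, and at most 178 in the other 21 samples. Variant b6998_4_2 gave 169779 in PO 1 and 230855 in A+PO 1, and at most 147 in the other 23. Variant b6998_4_16 was thus bright in both samples of 2 arrays and b6998_4_2 in both samples of 1, and each was near background elsewhere.

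Group 5 is the smallest. Variants b6998_5_1 and b6998_5_3 were detected in all samples, and b6998_5_2 and b6998_5_5 in all but LO 4 and its array partner. Variant b6998_5_4, which differs from b6998_5_1 at 16 positions, was detected in PO 1 and PO 4, at 1255 and 162, while its array partner A+PO 1 reached 294 without being called.

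In group 1, single variants were bright on 2 arrays and dim on all others. Variant b6998_1_15 gave 289942 in PO 2, 229965 in A+PO 2, 24212.7 in PO 1 and 11236.3 in A+PO 1, and at most 251 elsewhere. Variant b6998_1_21 was detected in the same 4 samples at 33059.4 to 67000.1, with at most 162 elsewhere. Variant b6998_1_22 showed the reverse side of the study. It gave 122413 in LO 11, 43779.1 in LO 3, 6289.5 in A+LO 9 and 5444.65 in A+LO 1, which are the samples of 2 linseed arrays. The other 21 samples stayed at or below 776, the value of PO 1. It was the one b6998 probe detected in linseed samples and in no control-oil sample.

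Not all rare detections stood clear of the undetected samples. Of the 26 probes detected in 1 to 5 samples, 14 had every undetected sample below the dimmest detected one, and 12 did not. Variant b6998_1_2 was called in 4 samples at 84.5 to 170, while PO 1 gave 541 and was not called. In group 2, b6998_2_12 was clear, with 7529 in PO 1, 3376 in A+PO 1, 1996 in PO 2, 861 in A+PO 2 and at most 142 elsewhere. Variant b6998_2_6 was called at 69.1 to 99.3 in 4 samples while PO 1 gave 417 uncalled.

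Probes that differ by 1 base show how finely detection separated neighbours. There were 35 such pairs in the set, and positions are counted from 1 at the first base of the probe as listed. In 23 pairs both probes were detected in the same number of samples, and in 13 of these that number was 0. The widest gap was between b6998_4_3, detected in 24 samples, and b6998_4_16 (A17C relative to it), detected in 4, all of them samples in which b6998_4_3 was detected too. Variant b6998_3_17 (A7C relative to b6998_3_3) was detected in 19 samples, and b6998_3_3 in 25. Variant b6998_3_5 (A19G relative to b6998_3_4) was detected in 22 samples, and b6998_3_16 (G23A relative to b6998_3_6) in 23. The other partners, b6998_3_4 and b6998_3_6, were detected in all 25 and differ from each other by A1G.

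In the pairs that follow, also a base apart, the counts differed by 0 to 2 samples. Variants b6998_3_12 and b6998_3_15 (T10A) were both detected in all samples. Variants b6998_4_13 and b6998_4_17 (C16T) were each detected in 9 samples, 7 of them shared. In group 5, b6998_5_3 (C15T relative to b6998_5_1) matched its partner at 25 samples, and b6998_5_2 (T9C) and b6998_5_5 (T14A) were each missed in 2.

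Group 1 holds 4 quartets in which position 19 takes each of the 4 bases. The quartet of variants 10 to 13 was detected in PO 1 and A+PO 1 and in no other sample, whichever base stood at position 19, at 2937 to 8631 in PO 1 and 1315 to 4669 in A+PO 1. In the quartet of variants 2 to 5, b6998_1_2 was called in 4 samples and the others in none. In that of variants 17 to 20, b6998_1_19 was called in 3 at 98.0 to 244, while PO 1 gave 318 uncalled. All 6 single-base pairs of group 1 with unequal counts, of 12 in the set, hold b6998_1_2 or b6998_1_19, whose calls lay below an uncalled sample. In the quartet of variants 28 to 31 no probe was detected.

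In these samples, the detected probes were more alike within an array than within a diet. Samples sharing an array differed by a median of 1 detected b6998 probe (0 to 5, 12 pairs), although their diets differed. Samples of the same diet on different arrays differed by a median of 6.5 (0 to 26, 66 pairs). Of the probes detected in either sample of an array, a median of 89.3% were detected in both, against 77.1% for pairs of the same diet. Samples of an array share the slide position, the hybridisation and, with the control oil, the sample number, and what each contributes was not tested. The arrays of PO 1 and PO 2 held 47 of the 81 detections of groups 1 and 2. Of the detected variants of these groups, 11 of 22 (50.0%) were found on these 2 arrays and nowhere else, against 21.7% of the detected probes of the other sets. Over all of b6998 it was 15 of 66 (22.7%), with 4 of the 20 variants of group 4 and 0 of groups 3 and 5. The 21.7% is not a matched comparison for groups 1 and 2. Of the 2077 detected probes of the other sets, 387 were found in all 25 samples, and no variant of groups 1 and 2 was.

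The array of LO 4 was the counterpart, with 20 probes detected in each of its samples. Of the probes of groups 3, 4 and 5, 19 were detected in 6 to 24 samples, and each of them was missed in at least 1 sample of this array. They were missed 104 times in all, 34 of them on this array, and 7 were missed nowhere else. Without this array, 25 probes in place of 18 were detected in all samples. The replicate spots disagreed on it. The 3 spots of b6998_4_1 read 190, 367985 and 417599 in LO 4, and since 1 bright spot was marked as an outlier the probe was not called. With outlier spots kept, LO 4 had 28 detected probes and its partner 26.

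Across the diets, PO samples had 40.5 ± 9.97 (SD, n = 6) b6998 probes detected, with counts of 31, 32, 36, 39, 49 and 56. A+PO samples had 42.0 ± 10.3 (n = 6), with counts of 32, 33, 36, 44, 49 and 58. LO samples had 33.0 ± 6.72 (n = 6), from 20 to 39 with a median of 34.5. A+LO samples had 33.0 ± 6.06 (n = 7), from 20 to 38 with a median of 35.0. The 4 ranges overlapped, and the linseed means lay lower by less than 1 SD of the control-oil groups. As mean shares of the set these were 42.6%, 44.2%, 34.7% and 34.7%. The other sets were also lower with linseed oil, at 24.7%, 24.4%, 21.1% and 18.5% in the same order. With detection at 3 SD of the local background, the LO mean lay 2.83 probes above the PO mean, and A+PO minus PO was -31 in place of a difference above 0. These counts are a description and carry no test.

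The counts by group carry no test either. Of the 19 variants of group 3, PO and A+PO samples each had 17.0 ± 2.10 detected, LO samples 16.2 ± 2.56 and A+LO samples 15.9 ± 2.61. Group 4 had 14.5 ± 2.74, 14.5 ± 2.88, 12.5 ± 3.02 and 12.0 ± 2.16 of 20 in the same order. Group 1 had 3.33 ± 3.88 and 4.17 ± 3.92 of 31 with the control oil, and 0.50 ± 0.84 and 0.57 ± 0.79 with linseed oil. The spread of group 1 within the control-oil diets was as large as its means.

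The share of probes found with the control oil and not with linseed oil was near that of the rest of the array. Of the 66 detected b6998 probes, 44 were found with both oils, 21 (31.8%) in control-oil samples and no linseed sample, and 1 (1.52%) in linseed samples and no control-oil sample. The same shares were 33.3% and 5.49% of the 2077 detected probes of the other sets. Of the 21, 15 were found on the arrays of PO 1 and PO 2 and nowhere else. In every sample of their diet, 28 b6998 probes were detected for PO (29.5%), 25 for A+PO (26.3%), 20 for LO (21.1%) and 20 for A+LO (21.1%). The same shares of the other sets were 15.0%, 14.3%, 13.2% and 9.76%.

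The signal was then compared between diets for the 40 b6998 probes detected in 6 or more of the 25 samples, among 1153 such probes of the whole array. They comprise 1 variant of group 1, 2 of group 2, 18 of group 3, 15 of group 4 and 4 of group 5. A level is the log2 intensity after background correction, relative to the 75th percentile of the sample over the 405 probes detected everywhere, so that 0 marks a bright probe. Levels at background depend on the sample. The median level of the 29 undetected b6998 probes was -11.14 ± 1.11 (SD, n = 6) in PO, -12.38 ± 0.48 (n = 6) in A+PO, -10.78 ± 2.44 (n = 6) in LO and -9.53 ± 2.33 (n = 7) in A+LO. Differences were tested with limma and the Benjamini-Hochberg adjustment over all 1153 probes, and an adjusted p under 0.05 passed.

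Between LO and PO, none of the 40 probes passed the limma test, and 3 had an unadjusted p under 0.05. Of all 1153 probes, 0 (0%) passed and 26 had an unadjusted p under 0.05. The median fitted difference, LO minus PO, was -1.12 over the 40 probes and -1.10 over all. The smallest p belonged to b6998_3_18. Its levels ran from -2.97 through a median of -1.20 to -0.20 in PO and from -10.76 through -6.23 to -0.05 in LO. The ranges overlapped, with 4 of 6 LO samples under the PO mean and LO 4 the lowest. The fitted difference was -3.54 (SE 1.55, limma adjusted p = 0.756), and -2.53 without LO 4.

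The next was b6998_4_18, with levels from -10.31 through -5.09 to -1.81 in PO and from -11.43 through -8.78 to -5.69 in LO. All 6 LO samples lay under the PO mean, but PO 6, the lowest PO sample, lay below the LO median. Its fitted difference was -3.30 (SE 1.48, limma adjusted p = 0.756).

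Between A+LO and A+PO, none of the 40 probes passed the limma test and 4 had an unadjusted p under 0.05, beside 0 (0%) and 87 of all 1153 probes. The median fitted difference, A+LO minus A+PO, was -0.35 over the 40 probes and 0.68 over all. The median level of the undetected b6998 probes was 2.85 higher in A+LO than in A+PO. The probe with the smallest p was b6998_4_9. It was tight in A+PO, from -0.29 through -0.02 to 0.04, and spread in A+LO from -9.46 in A+LO 9 through -0.46 to 0.17. Before background correction and scaling, A+LO 9 gave an intensity of 172. A+LO 1 and the A+LO partner of LO 4 gave 211 and 189, yet had levels of -6.21 and -5.45. The fitted difference of b6998_4_9 was -2.98 (SE 1.24, limma adjusted p = 0.567), with 5 of 7 A+LO samples under the A+PO mean. Variant b6998_5_3 ran from -3.99 through -0.26 to 0.04 in A+PO and from -9.33 through -4.46 to -0.09 in A+LO. The ranges overlapped, and the fitted difference was -2.92 (SE 1.26, limma adjusted p = 0.567). Without the filter on dim probes, 43 of the 95 probes passed as higher and 2 as lower in A+LO. That fit takes in the 29 undetected probes, and the matching share over the whole array is not reported here. The count is therefore not a result particular to this set.

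Between A+PO and PO, 19 of the 40 probes passed the limma test as lower in A+PO and none as higher. This is 47.5% of them, against 66.1% of all probes tested. All 40 fitted differences were negative, as were 93.8% of those over the array. Their median was -1.69, beside -1.98 over all probes, and the median level of the undetected b6998 probes differed by -1.24. The 19 were 1 of 1 tested variant of group 1, 0 of 2 of group 2, 8 of 18 of group 3, 9 of 15 of group 4 and 1 of 4 of group 5.

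The largest difference was that of b6998_4_15, detected in all samples. Its levels ran from -8.48 through -4.41 to -0.66 in PO and from -11.82 through -7.44 to -2.34 in A+PO, so the groups overlapped. It was lower in the A+PO sample on 6 of 6 arrays, by 1.68 to 3.74. The fitted difference was -2.71 (SE 0.74, limma adjusted p = 0.00328), which is -0.73 relative to the median probe. Variant b6998_4_6 ran from -8.51 through -6.60 to -1.21 in PO and from -12.50 through -9.05 to -3.57 in A+PO. It too was lower on 6 of 6 arrays, with a fitted difference of -2.59 (SE 0.85, limma adjusted p = 0.0105), or -0.60 relative to the median probe.

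This direction rests on the scaling. With the median of the kept probes subtracted in place of the 75th percentile, 0 of the 40 probes were lower and 9 were higher in A+PO, and the fitted differences of b6998_4_15 and b6998_4_6 became 0.13 and 0.26. With the replicate number, which on the control-oil arrays is the array, as a fixed block, 33 passed as lower, with outlier spots kept 34, and without an array block 0. Leaving out single samples gave 8 to 11 without PO 1, PO 4, PO 5, A+PO 4, A+PO 5 or A+PO 6, 34 without LO 4 and 33 without its partner. The shares over the whole array under these alternatives are not reported here.

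Between A+LO and LO, 2 of the 40 probes passed the limma test as lower in A+LO (5.00%) and 0 as higher, and 5 had an unadjusted p under 0.05. Over the array the shares were 4.08% lower and 0.867% higher, with 303 of 1153 under an unadjusted p of 0.05. The median fitted difference, A+LO minus LO, was -0.64 over the 40 probes and -0.24 over all, and the undetected b6998 probes were higher by 1.25. Variant b6998_3_1, detected in all samples, ran from -3.60 through -0.69 to 0.56 in LO and from -6.30 through -3.51 to -0.18 in A+LO. The ranges overlapped, and the A+LO sample was lower on 5 of 6 arrays. The fitted difference was -2.36 (SE 0.54, limma adjusted p = 0.0208). Its highest LO level, 0.56, was that of LO 4, where the replicate spots read 1168, 128448 and 574042. That level rests on the brightest spot alone, as the others were left out as outliers. In the A+LO partner of LO 4 the spots read 130, 7345 and 50066.

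The other was b6998_4_1, which was missed in LO 4 and its partner and is named after its values were seen. It ran from -5.54 through -1.84 to 0.42 in LO and from -8.27 through -5.26 to 0.18 in A+LO. The A+LO sample was lower on 6 of 6 arrays, and the fitted difference was -2.35 (SE 0.62, limma adjusted p = 0.0367). The array of LO 4 is among the 6. There the partner's spots read 60.8, 17569 and 35007, and its level rests on the dimmest spot alone. The count depended on the array of LO 4 and on single samples. It was 23 without LO 4 and 19 without its partner, 15 with outlier spots kept, and 0 without LO 6, LO 8, LO 9, LO 11, A+LO 9 or the A+LO partners of LO 6, LO 8 or LO 9. It was 1 without LO 3, any PO sample, A+PO 2, A+PO 3 or A+PO 6. Both probes kept their direction under 7 of 7 choices of signal or scaling, and passed under 5. With the replicate number as a block, which could use numbers 9 and 11 alone, it was 0. With the median of the kept probes subtracted it was 0 lower and 7 higher. The shares over the whole array under these alternatives are not reported here.

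The last comparison asked whether the aleurone difference differed between the oils, taken as the A+LO minus LO difference less the A+PO minus PO difference. Of the 40 probes, 3 passed the limma test as higher (7.50%), against 28.2% of all probes. The median fitted value was 1.20 over the 40 probes and 1.51 over all. All 3 were mostly undetected and are named after their values were seen. Variant b6998_1_14 was detected in 4 PO, 4 A+PO, 1 LO and 0 A+LO samples, b6998_2_18 in 0, 3, 0 and 3, and b6998_3_2 in 3, 3, 2 and 2. Where a probe was not well above background its level is only a bound.

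Variant b6998_3_2 had the largest value. Its levels ran from -10.98 through -10.42 to -4.22 in PO, from -12.83 through -12.15 to -6.17 in A+PO, from -12.50 through -11.77 to -7.41 in LO and from -11.61 through -10.59 to -6.33 in A+LO. On the control-oil arrays the aleurone sample differed by -2.43 to -1.04, and on the linseed arrays by -0.85 to 4.92. The value of 4.92 came from the array of LO 4, where the probe was called in neither sample. There the level was -6.64 in the A+LO partner and -11.56 in LO 4, while the intensity before background correction and scaling was 59.3 and 139. The interaction was 3.0 (SE 0.91, limma adjusted p = 0.0167). It was 2.82 for b6998_1_14 (SE 1.07, limma adjusted p = 0.0452) and 2.34 for b6998_2_18 (SE 0.81, limma adjusted p = 0.0289). The same difference of differences for the median level of the 29 undetected b6998 probes was 2.49. Among probes detected in at least 13 samples none of the set passed, none passed with the median of the kept probes subtracted, and none without PO 1 or without A+LO 1. The count was 1 without PO 4, PO 6, A+PO 4, A+PO 5 or A+PO 6. All 3 values changed sign with quantile scaling over all channels and with loess.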

How the data were processed

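The deposited files hold spot intensities on a linear scale for 13 arrays, written by Agilent Feature Extraction 10.5.1.1 per the file headers. Per the labels' protocols, 10 ng of faecal DNA went into 35 cycles of 16S rRNA gene PCR, 1 µg of product was labelled and 250 ng hybridised. Mean spot intensity and median local background were used as deposited, and the deposited software flags gave outlier spots and detection. The background-subtracted and processed intensities were alternatives.

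Each dye was a single channel. Background was corrected by normexp with an offset of 50 and the log2 values of used spots were averaged and scaled as the report states. Differences were fitted with limma 3.58.1 in R 4.3.3 as 4 group means over 25 samples with a random block for the array (correlation 0.760), and checked on simulated data. Fitted differences can depart from differences of means because A+LO 11 has no array partner. Deviations from the group means correlated at 0.67 to 0.94 between samples of an array over kept probes. On control-oil arrays, the samples also share their number. Named probes were, per comparison, at most 2 higher and 2 lower with the largest differences past the test, found in all samples of at least 1 compared group, or the 2 smallest p. The members, lists and this rule were chosen with earlier results of these data known. Probe sequences are described by composition and substitutions. The number of arrays limits precision.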

Additional observations from a re-analysis of the deposited data

Results flagged for a closer look

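Among the counts of detected b6998 probes and the levels of the named probes in each diet, 48 distributions were screened for a sample far from the rest, a screen in which chance marks about 1 in 20. LO 4 had 20 detected probes, and the next LO sample had 33. Its A+LO partner on the array had 20, and the next A+LO sample had 32. PO 1 had a level of -4.22 for b6998_3_2, and the next PO sample had -8.57. Both LO 4 and its partner also had the fewest detected probes in the other sets (15.2% and 12.8%), and PO 1 had the most among the PO samples (31.7%).

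The interaction test, the aleurone difference with linseed oil minus that with control oil, passed for 3 probes, at 2.82 for b6998_1_14, 2.34 for b6998_2_18 and 3.0 for b6998_3_2 on the log2 scale. The fitted aleurone difference was negative with control oil and positive with linseed oil in each: -1.89 and 0.93 for b6998_1_14, -0.76 and 1.59 for b6998_2_18, and -1.73 and 1.27 for b6998_3_2. The positive values were seen after background correction and scaling, and what each step contributed was not tested. Before both steps, the median intensity in LO was 130, 108 and 141 for these probes in turn. In A+LO it was lower, at 60.8, 76.4 and 69.5. Spots of all probes were also dimmer in A+LO, with a mean of the sample medians of 63.5, against 126 in LO. None of the 3 passed the limma test with linseed oil, and b6998_2_18 did not pass it with control oil. The undetected probes of the set gave 2.49 by the same difference of differences, with no test. A dye effect of unequal size on the 2 slides cannot be told apart from these values.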

How the results depend on the processing

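Counts are of b6998 probes past the limma test. The matching shares over the array are given above for the main fit alone. A changed count is therefore not a result particular to this set. For LO minus PO, 0 passed in either direction under every alternative run. For A+LO minus A+PO, the counts moved from 0 only when dim probes were not filtered out (43 higher, 2 lower). For A+PO minus PO, 19 lower became 12 with the processed signal, 0 with the median of all probes, of the kept probes or quantile scaling over all channels, 1 with loess, 0 without an array block, 33 with the replicate block, 36 with only the compared groups and 34 with outlier spots kept. The count higher went from 0 to 1 with the median of all probes, either quantile scaling or loess, and to 9 with the kept probes' median. For A+LO minus LO, 2 lower became 8 with the processed signal, 29 with the median of all probes, 28 with quantile scaling within each dye, 4 with loess, 15 with outlier spots kept, and 0 with the kept probes' median, quantile scaling over all channels, no filter, no array block, the replicate block or only the compared groups. The count higher went from 0 to 1 with the background-subtracted or processed signal, quantile scaling over all channels or loess, and to 7 with the kept probes' median. For the interaction, 3 higher became 59 with no filter, 5 with outlier spots kept, and 0 with the processed signal, each other scaling, detection in at least 13 samples or no array block. The median of all probes gave 8 lower.

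Leaving out single samples or arrays gave 8 to 34 lower for A+PO minus PO, 0 to 23 lower and 0 to 1 higher for A+LO minus LO, and 0 to 4 higher for the interaction, and moved no other count. It moved the difference in detected probes from -7.50 to between -9.40 and -4.40 (LO minus PO), from -9 to between -11 and -5.80 (A+LO minus A+PO), from 1.5 to between -1.70 and 4.60 (A+PO minus PO), and from 0.00 to between -2.60 and 2.17 (A+LO minus LO). With detection set at 3 SD of the local background, these differences became 2.83 (LO minus PO), -31.0 (A+PO minus PO) and -46.8 (A+LO minus LO). Groups 1 and 2 were then detected in 32.4% and 30.4% of combinations, beside 44.9% in the other sets in place of 22.0%. All of their 31 and 20 variants were then detected somewhere.

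Of the named probes, b6998_4_15 and b6998_4_6 reversed with the kept probes' median (0.13 and 0.26). The interaction reversed for b6998_1_14 with quantile scaling over all channels (-0.60) and loess (-0.028), for b6998_3_2 under the same (-0.083 and -0.037), and for b6998_2_18 with the median of all probes (-0.47), quantile scaling over all channels (-0.095) or within dyes (-0.086) and loess (-0.41). The causes were not tested. Keeping outlier spots was chosen after the data were seen. Array data carry no counts, and probes near background have only bounds.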
